A study of Mus musculus with 8 samples.

Results

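The genes described here are 52 genes that interferons switch on in mouse cells: antiviral effectors, interferon regulatory factors, sensors of viral nucleic acid, interferon-inducible GTPases, poly-ADP-ribose polymerases with their partner Dtx3l, Ifitm membrane proteins and immunoproteasome subunits. They were chosen by name, as a list of type I and type II interferon stimulated genes, with no threshold on a measured value. Of the 52 genes, 51 were found by Ensembl identifier among the 36811 gene models measured (Psmb9 was not matched), and 49 of these passed the low-value filter, 1 FPKM or more in 4 or more libraries, which 11260 gene models passed in all. FPKM, fragments per kilobase of transcript scaled to library size, is the level of a transcript corrected for its length and for sequencing depth.

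Type I interferons signal through the receptor chains Ifnar1 and Ifnar2 and activate a complex that includes Stat2 and Irf9 and binds the interferon-stimulated response element (ISRE) in promoters. Type II interferon, the product of Ifng, signals through Ifngr1 and Ifngr2 and acts on promoters through the gamma-activated site (GAS). In lymphocytes these pathways keep a basal level of antiviral genes, raise it on infection, and are restrained by feedback inhibitors such as Usp18 and Socs1.

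RNA was sequenced from regulatory T (Treg) cells, CD4+ T cells that express Foxp3, taken from the spleens of C57BL/6 mice 12 to 13 weeks old. All mice had the genotype Foxp3EGFP-DTR Bach2tdRFP/+: the Foxp3 reporter is a green fluorescent protein fused to the diphtheria toxin receptor, and 1 Bach2 allele carries a red fluorescent reporter (RFP). Bach2 is a transcriptional repressor that restrains effector differentiation of T cells. Foxp3-GFP+ cells were sorted into Bach2-RFP HI and Bach2-RFP LO cells, with 4 libraries of each, F1 and F2 labelled female and M1 and M2 labelled male. Whether each library is a separate animal is not stated in the labels, and p-values therefore reflect only how far these libraries differ from each other, which may be technical.

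Bach2 itself was at 15.6 ± 5.56 FPKM in HI and 0.691 ± 0.187 FPKM in LO libraries (SD, n = 4 each), and Foxp3 was at a mean of 14.2 FPKM in HI and 14.7 FPKM in LO. Relative depth, with HI F1 as 1, ran from 0.636 in HI M1 to 5.27 in LO M2. The summed FPKM of 8 T cell and Treg genes was 8666 to 9916 in HI and 9882 to 13438 in LO libraries. Of these 8, Ctla4 was called higher in LO (mean 101 FPKM in HI and 251 FPKM in LO) and Il2ra lower (75.6 and 27.7 FPKM). Genes listed as markers of other cells also moved with the groups. Over all tested gene models, 3.64% were called lower and 4.65% higher in LO. The sum of 2 CD8 T cell markers was 36.8 to 46.5 FPKM in HI and 24.2 to 33.6 FPKM in LO, with none called. Nearly all of it was Cd8b1, at a mean of 41.0 FPKM in HI and 27.8 FPKM in LO. Of 9 tested plasmacytoid dendritic cell markers, without Bst2, 6 were called lower and none higher in LO. The summed FPKM of 10 matched ones was 273 to 552 in HI and 106 to 250 in LO, with Cd300c at 0 in all LO libraries. Irf8, not called, made up much of these sums, at a mean of 172 FPKM in HI and 121 FPKM in LO. Of the genes called, Siglech went from a mean of 23.7 FPKM in HI to 0.541 in LO, and Pacsin1 from 92.1 to 43.8. Among 9 tested B cell markers 4 were called lower and 1, Ighm, higher. The summed B cell markers were 954 to 1131 FPKM in HI and 1121 to 2048 FPKM in LO. Without Ighm the sum was 157 to 268 in HI and 78.8 to 105 in LO, with Pax5 at 0 in all LO libraries. Much of that was Cd79b, not called, at a mean of 95.8 FPKM in HI and 75.9 FPKM in LO. Cd79a, called lower, was at 48.9 and 4.61 FPKM. For myeloid cells 4 of 12 tested markers were called lower (327 to 660 against 146 to 339). For natural killer cells, 3 of 6 matched markers were tested and 2 called lower (8.34 to 25.2 against 1.20 to 5.26, with Klre1 at 0 in all LO libraries). Of these 2, Eomes passed the low-value filter only through its HI values, being at 0 to 0.426 FPKM in LO, so its call is weak support. For plasma cells 2 of 4, Jchain and Prdm1, were called higher (111 to 143 against 175 to 261). Sdc1 and Xbp1 were not called, and the mean of Xbp1 was 112 FPKM in HI and 104 FPKM in LO. Tnfrsf17 was listed at 0 in every library except LO M2, the deepest, where it was at 1.11 FPKM. The part of these cells in the results below was not tested, and in bulk RNA fewer cells of a type and less RNA per cell cannot be told apart. Whether the sorted Treg cells themselves expressed any of these genes, Prdm1 and Jchain included, was not tested either.

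Promoters carry the elements through which interferons act, so stretches of 60 bases from the promoters of 7 members are shown. Oas1a was called, Gbp3 had groups without overlap, and Irf1 and Psmb8 had the highest mean of their role. Isg15, Rsad2 and Ifit1 were chosen after their values were seen. Only promoters with a match could be shown, so the matches are no result about these 7. Usp18, the other called member, had no listed match. Promoters were available for only some of the members, and whether Usp18 was among them is not recorded. Its lack of a match therefore says nothing about its promoter. The stretches come from RefSeq on GRCm38.p6, read 5′ to 3′ in the direction of transcription. In the first 5, capitals mark matches on either strand to the ISRE core, which is GAAA, 2 bases of any kind and GAAA again.
Oas1a, chr5:120907526-120907585, minus strand: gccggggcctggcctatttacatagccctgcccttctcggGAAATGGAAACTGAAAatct
Gbp3, chr3:142559977-142560036, plus strand: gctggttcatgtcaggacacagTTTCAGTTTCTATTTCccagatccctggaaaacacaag
Isg15, chr4:156200856-156200915, minus strand: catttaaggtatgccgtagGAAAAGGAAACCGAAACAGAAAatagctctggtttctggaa
Rsad2, chr12:26456538-26456597, minus strand: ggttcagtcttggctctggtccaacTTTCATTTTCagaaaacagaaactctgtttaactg
Ifit1, chr19:34640770-34640829, plus strand: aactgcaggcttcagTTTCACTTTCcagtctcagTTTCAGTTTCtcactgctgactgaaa
In the other 2, Irf1 and Psmb8, capitals mark the GAS core TTCNNNGAA.
Irf1, chr11:53769899-53769958, plus strand: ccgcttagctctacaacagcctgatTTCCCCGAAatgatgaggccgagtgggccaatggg
Psmb8, chr17:34198073-34198132, plus strand: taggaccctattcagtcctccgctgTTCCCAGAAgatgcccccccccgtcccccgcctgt

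The promoter table held 48 promoters for 40 of the 52 members. Within the 250 bases before the start, on either strand, the ISRE core was present in 16 of the 48 (33.3%) and in 2.98% of all 32851 promoters in the table. The GAS core was present in 10 of 48 (20.8%) and in 7.02% of all promoters. TGANTCA, an element that AP-1 and Bach2 can bind, was present in 8 of 48 (16.7%) and in 6.75% of all. In 1 place matches of different motifs overlapped. Members with the ISRE core were Bst2, Ddx60, Gbp2, Gbp3, Gbp7, Ifit1, Ifit3, Ifitm2, Igtp, Irgm1, Irgm2, Isg15, Oas1a, Oas3, Rsad2 and Trim30a. These are matches of letters, not measured binding, and the LO minus HI differences of the 16 genes, described next, ran from -0.30 in Bst2 to 1.80 in Rsad2 on the log2 scale.

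The interferon stimulated genes were expressed over a wide range in these Treg cells and most differed little between HI and LO. Of the 51 matched members, 15 had a mean over all libraries of at least 100 FPKM, 29 lay between 10 and 100 FPKM, and 7 were below 10 FPKM. Among those at high level were Ifi27l2a, Psmb8 and Sp100, a nuclear body protein, at 688 ± 65.8 FPKM in HI and 676 ± 91.5 FPKM in LO (n = 4 each). Listed at 0 in at least 1 library were 5 members: Mx1, Mx2, Oas2, Ifi44 and Ifitm1.

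Across the 49 members that passed the filter, limma with Benjamini-Hochberg adjustment over all 11260 gene models called 1 gene higher in LO (Oas1a) and 1 lower (Usp18), 4.08% of them, beside 8.29% of all tested gene models (4.65% higher and 3.64% lower). With so few calls the order of these shares is not a result about the members: without LO F2 it was 6.12% of members and 5.70% of all models. At an unadjusted p below 0.05 there were 15 members, 12 higher and 3 lower in LO (30.6%), beside 20.9% of all models. In 7 members the 4 HI and the 4 LO values did not overlap (14.3%), beside 15.1% of all models, with LO above HI in 5 and below in 2 (7.9% and 7.18% of all models). The median LO minus HI difference of the members was 0.21 on the log2(FPKM + 1) scale, beside -0.03 over all tested models; it was 0.089 without LO M2 and 0.12 without HI M2. Of the members, 31 of 49 (63.3%) had a difference above 0, beside 48.0% of all models. Differences ran from -1.93 in Ifitm1 to 1.80 in Rsad2. Of the 49, 34 lay within 0.5 of 0 and 6 were at least 1 away from it. The 95% confidence limits lay 0.29 to 1.81 from the estimate on each side, with a median of 0.63, and for 26 members the whole interval lay within 1 of 0.

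**Figure D1:**
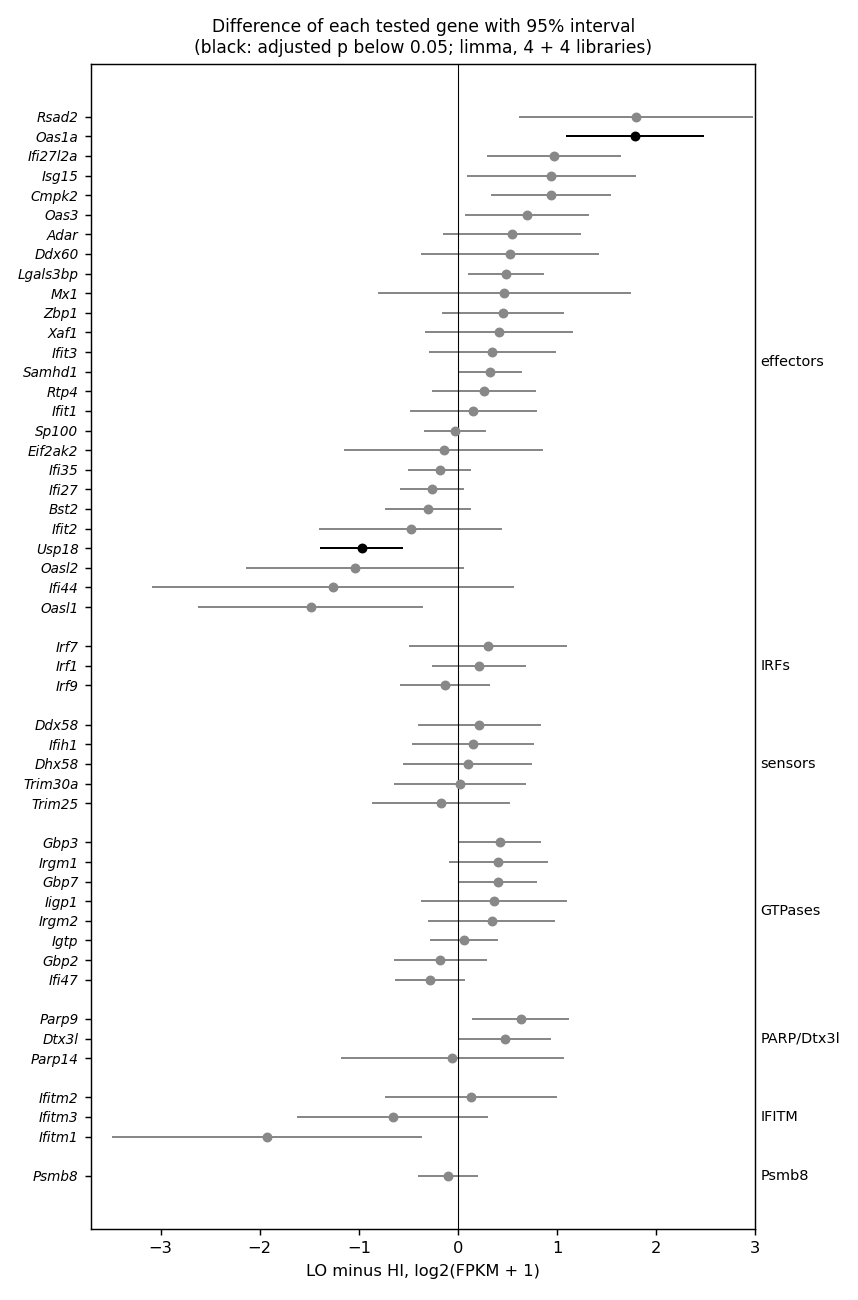
LO minus HI difference of the 49 members that passed the filter, on the log2(FPKM + 1) scale, ordered within each role; points are limma estimates, lines their 95% confidence intervals, and black marks an adjusted p below 0.05, grey the rest. Oas1a (1.78) and Usp18 (-0.97) are the called members, while the widest intervals are those of Ifi44, Ifitm1 and Mx1.

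Antiviral effectors were the largest role, with 26 of 28 members past the filter, 1 called higher, 1 called lower and 24 not called; 16 had a difference above 0 and 10 below, with a median of 0.33. Oas1a (ENSMUSG00000052776), a synthetase that makes the oligoadenylates that activate the ribonuclease RNase L, was at 13.2, 20.4, 14.6 and 8.66 FPKM in HI F1, F2, M1 and M2 and at 57.7, 62.3, 30.6 and 53.6 FPKM in the LO libraries in the same order. All LO libraries lay above all HI libraries, with male M1 the lowest of the LO values. Oas1a rose from 14.2 ± 4.83 to 51.0 ± 14.1 FPKM (n = 4 each), 3.60-fold, a log2 difference of 1.78 (SE 0.31, adjusted p = 0.0059). It shares 57.6% of the 50-base windows of its transcripts with other genes, mainly Oas1g, which was listed at 0 in 7 libraries and at 0.127 FPKM in LO M2, so reads could be split between them.

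Usp18 (ENSMUSG00000030107), which removes Isg15 from proteins and blocks signalling at Ifnar2, went the other way. It was at 82.1, 56.2, 63.3 and 67.8 FPKM in HI F1, F2, M1 and M2 and at 35.3, 31.6, 28.9 and 39.2 FPKM in LO. Every LO library lay below every HI library. The mean went from 67.4 ± 11.0 to 33.8 ± 4.50 FPKM (n = 4 each), and the gene fell by 0.97 on the log2 scale (SE 0.18, adjusted p = 0.0096). Both Oas1a (adjusted p from 0.0041 to 0.0426) and Usp18 (0.0081 to 0.0334) stayed called in each of the 16 alternative analyses, left-out libraries included.

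**Figure D2:**
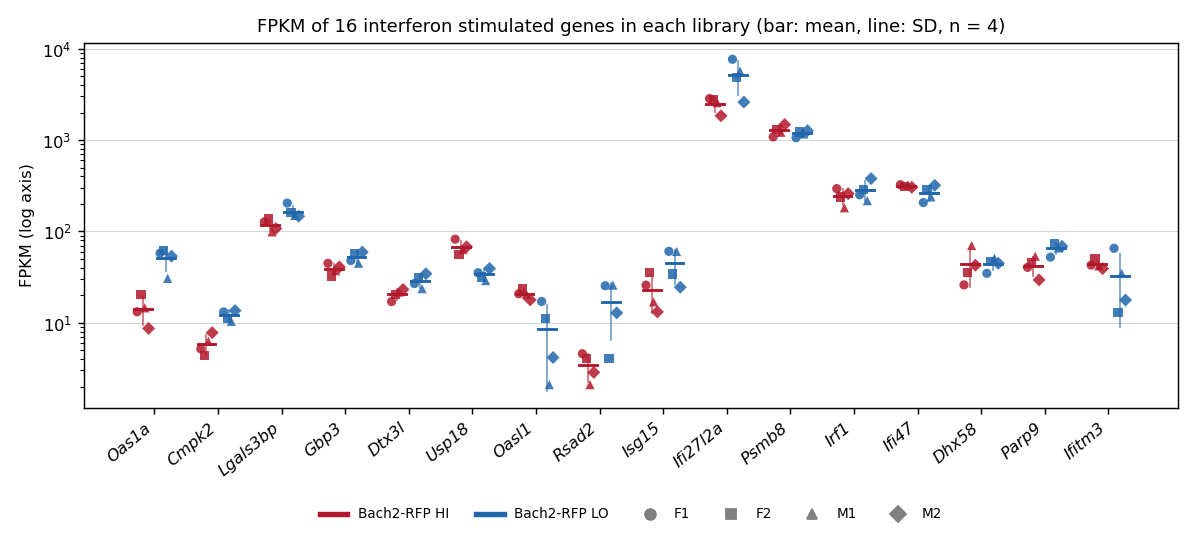
FPKM (log axis) of 16 members in each of the 8 libraries, HI and LO side by side, with points for single libraries and the mean with its SD. Oas1a, Cmpk2, Lgals3bp, Gbp3 and Dtx3l have all LO points above all HI points, Usp18 and Oasl1 have all LO points below, and Rsad2, Isg15 and Ifi27l2a spread over a wide range in LO.

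The other oligoadenylate synthetases were not called. Oas3 had a difference of 0.70 (SE 0.28, adjusted p = 0.178). Oas2 was below the filter, at 0.560, 0.880, 0 and 0.671 FPKM in HI and 2.33, 0.795, 0.549 and 1.08 FPKM in LO. In both, HI and LO libraries overlapped. In RefSeq gene order, Oas2, Oas3 and Oas1a stand within a few genes of each other, as do the synthetase-like genes Oasl2 and Oasl1.

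The Oasl proteins resemble the synthetases but, in Oasl1, lack the enzyme activity. Oasl1 was at 20.7, 23.8, 20.5 and 17.8 FPKM in HI and 17.1, 11.2, 2.10 and 4.16 FPKM in LO. Its LO values lay below its HI values, the F1 value of LO being close to the lowest HI value, with a difference of -1.49 (SE 0.50, adjusted p = 0.116; 0.0377 without LO F1). The male LO libraries were lower than the female ones, and in the interaction of sex and reporter level Oasl1 had an unadjusted limma p of 0.0217, with an adjusted p of 0.999. Oasl2 had a difference of -1.04 (SE 0.49, adjusted p = 0.262), with overlapping groups.

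Rsad2 (viperin), which makes a chain-terminating nucleotide, and Cmpk2, a mitochondrial nucleotide kinase whose product feeds that reaction, are neighbouring genes. Cmpk2 was at 5.17, 4.38, 6.26 and 7.78 FPKM in HI and 13.1, 11.2, 10.3 and 13.6 FPKM in LO, with no overlap. Its means were 5.90 ± 1.47 and 12.1 ± 1.55 FPKM, a difference of 0.94 (SE 0.27) that did not pass the threshold (adjusted p = 0.0609, and 0.0532 to 0.180 in the alternatives). Rsad2 was at 4.58, 4.08, 2.10 and 2.86 FPKM in HI and 25.4, 4.08, 25.8 and 12.8 FPKM in LO. In LO F2 the level of Rsad2 was that of the HI libraries, while in the other 3 LO libraries it was higher than in any HI library. The difference of 1.80 (SE 0.52) did not pass (adjusted p = 0.0679), and it did without LO F2 (adjusted p = 0.0094).

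Isg15, the ubiquitin-like modifier that Usp18 removes, was at 25.8, 35.5, 16.9 and 13.1 FPKM in HI and 60.4, 34.2, 60.2 and 24.5 FPKM in LO. Its groups overlapped, LO F2 and LO M2 lying within the HI range, and the difference was 0.94 (SE 0.38, adjusted p = 0.187). Ifi27l2a, a small hydrophobic protein and the most abundant member, was at 2843, 2782, 2563 and 1843 FPKM in HI and 7663, 4884, 5677 and 2603 FPKM in LO. In LO M2, the deepest library, Ifi27l2a lay within the HI range, and the other 3 LO libraries lay above it. The difference of 0.97 (SE 0.30) did not pass (adjusted p = 0.0840). It passed without LO M2 (adjusted p = 0.00684), with quantile normalization (log2 difference 1.54, adjusted p = 0.00483) and without the shallowest and the deepest library (adjusted p = 0.0159).

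Lgals3bp, a secreted galectin-binding glycoprotein, was at 127, 137, 98.8 and 107 FPKM in HI and 204, 160.1, 149.5 and 147 FPKM in LO. All LO values exceeded all HI values, by a small margin, with a difference of 0.49 (SE 0.17, adjusted p = 0.121). Samhd1, a dNTP hydrolase that limits retroviral replication, had a difference of 0.32 (SE 0.14, adjusted p = 0.222). Ifit1, which binds viral RNA without a methylated cap, had a difference of 0.16 (SE 0.28, adjusted p = 0.809), and Ifit2 and Ifit3, its neighbours, of -0.48 and 0.35, neither called. Ifit3 shares 51.2% of its 50-base windows with other genes, mainly Ifit3b. Bst2 (tetherin), which holds budding virions at the membrane and is also a plasmacytoid dendritic cell marker, was at 215 ± 21.1 FPKM in HI and 177 ± 44.3 FPKM in LO (difference -0.30, adjusted p = 0.415).

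The Mx GTPases, which block incoming viruses, were at low levels. Mx2 did not pass the filter, at 1.08, 0.423, 0 and 0 FPKM in HI and 0, 2.63, 0.538 and 1.84 FPKM in LO. C57BL/6 mice carry a defective Mx1 allele, and Mx1 passed the filter at 0 to 2.65 FPKM, with 0 in 3 libraries and a difference that was not called (adjusted p = 0.706). At these levels a difference between HI and LO was not detectable.

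None of the 3 interferon regulatory factors was called by limma, and none had an unadjusted p below 0.05; their median difference was 0.21. Irf1, a transcription factor that the type II pathway induces, was at 294, 238, 181 and 259 FPKM in HI and 251, 287, 217 and 378 FPKM in LO. The groups overlapped, with a difference of 0.21 (95% interval -0.25 to 0.67, adjusted p = 0.628). Irf7, which drives type I interferon genes, was at 0.30 (adjusted p = 0.696) and Irf9, a DNA-binding partner of Stat2, at -0.13 (adjusted p = 0.773).

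Among the 5 sensor genes none was called by limma, none was at an unadjusted p below 0.05, and the differences lay between -0.17 and 0.22. Dhx58 (LGP2), a regulator of the RNA helicase sensors, was at 25.9, 35.5, 69.9 and 42.6 FPKM in HI and 34.7, 46.4, 50.8 and 44.7 FPKM in LO. It had the highest mean of its role, and its HI values spanned the LO values (difference 0.10, interval -0.54 to 0.74, adjusted p = 0.892). The helicases Ddx58 (RIG-I) and Ifih1 (MDA5), which detect viral RNA, were at 0.22 and 0.16.

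Of the 8 GTPases, which attack the vacuoles of intracellular pathogens and are typical targets of type II interferon, none was called and 2 had an unadjusted p below 0.05, Gbp3 and Gbp7; 6 differences were above 0 and 2 below, with a median of 0.35. Gbp3 was at 44.7, 32.5, 37.1 and 40.8 FPKM in HI and 47.9, 57.0, 44.8 and 59.3 FPKM in LO. Its LO values all exceeded its HI values, the lowest LO value standing just above the highest HI value (difference 0.42, SE 0.18, adjusted p = 0.216). Gbp7, its neighbour in the genome, had a similar difference of 0.41 (SE 0.17, adjusted p = 0.211). Ifi47, the most abundant GTPase, was at 325, 312, 323 and 304 FPKM in HI and 207, 289.5, 239 and 319 FPKM in LO, with a difference of -0.28 (SE 0.15, adjusted p = 0.343).

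Parp9 and Dtx3l form a complex that ADP-ribosylates and ubiquitinates proteins, and the genes lie side by side. Dtx3l was at 17.0, 20.3, 21.7 and 23.1 FPKM in HI and 26.8, 31.0, 23.6 and 34.4 FPKM in LO, with no overlap (difference 0.47, SE 0.21, adjusted p = 0.225). Parp9 was at 40.4, 45.5, 53.5 and 29.5 FPKM in HI and 52.3, 73.3, 65.8 and 68.7 FPKM in LO, where 1 LO library fell within the HI range (difference 0.63, SE 0.21, adjusted p = 0.116). They share 9.09% and 7.43% of their 50-base windows, so the levels are not wholly separate. Parp14, beside them, had a difference of -0.06 (adjusted p = 0.969).

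The Ifitm proteins, which hinder fusion of viral and cellular membranes, had a median difference of -0.66 over 3 genes, with none called and 1 (Ifitm1) at an unadjusted p below 0.05. Ifitm3 was at 42.7, 50.3, 42.0 and 39.2 FPKM in HI and 65.3, 13.1, 34.7 and 17.7 FPKM in LO. LO F1 was the highest of all 8 libraries and the other 3 LO libraries the lowest (difference -0.66, SE 0.42, adjusted p = 0.427). Ifitm1 was at 3.32, 2.61, 20.9 and 4.06 FPKM in HI and 4.06, 0, 0 and 0.631 FPKM in LO, so that HI M1 stood far above the other libraries and LO F2 and LO M1 were listed at 0 (adjusted p = 0.140). Psmb8, a catalytic subunit of the immunoproteasome, which cuts peptides for antigen presentation, was at 1082, 1315, 1218 and 1477 FPKM in HI and 1060.2, 1227, 1165 and 1268 FPKM in LO, with overlapping groups and a difference of -0.10 (interval -0.40 to 0.19, adjusted p = 0.721).

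**Figure D3:**
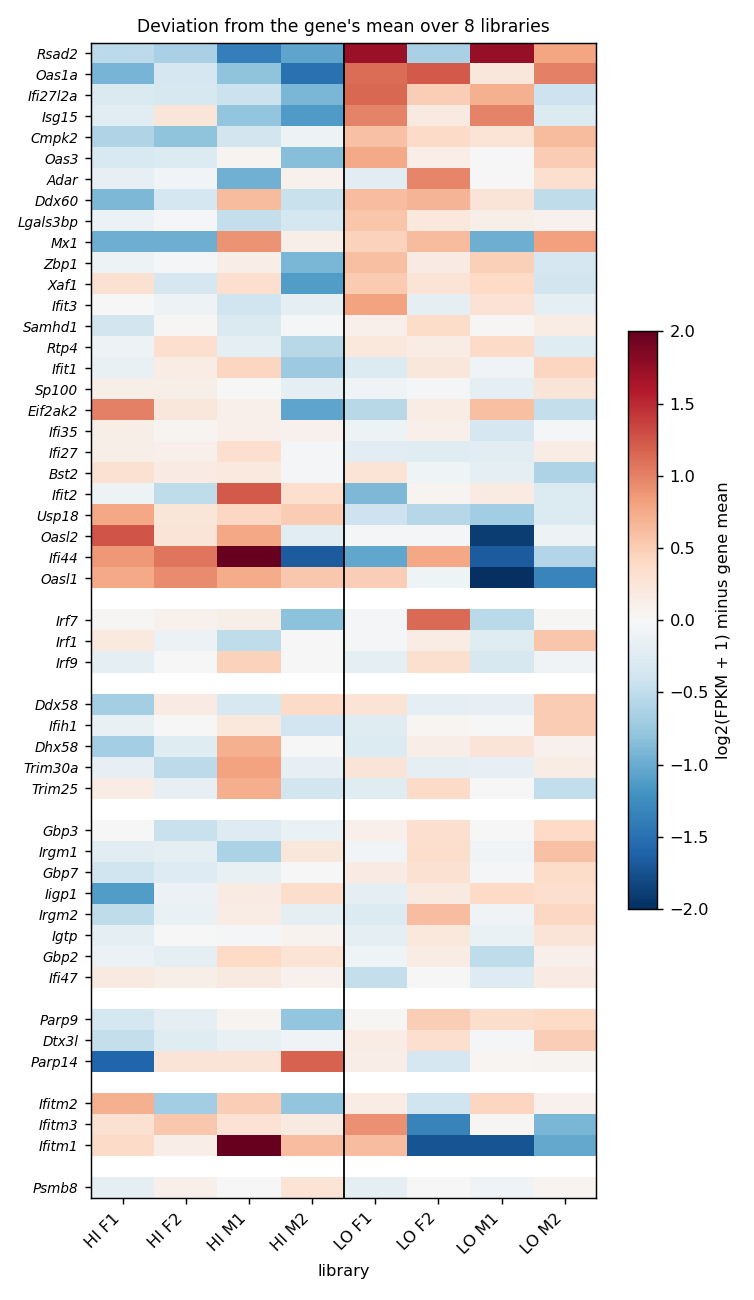
Level of each of the 49 members in each of the 8 libraries, as log2(FPKM + 1) minus the gene's mean over all libraries, ordered by role; colours are limited to differences of 2 either way. No library is high or low for every member: HI M1 holds the highest of the 4 HI values for 19 members and LO M1 the lowest of the 4 LO values for 19.

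Single libraries differed among themselves across the members. Within HI, HI M1 held the highest value for 19 of 49 members (38.8%, beside 37.1% of all tested models), and HI M2 the lowest for 22 (44.9%, beside 28.1%). In LO, LO M2 held the highest for 16 (32.7%, beside 24.2%) and LO M1 the lowest for 19 (38.8%, beside 29.4%). HI M1 was thus high over the whole of the genes tested and not only for these. The median deviation of the members from the group mean was -0.14 in HI M2, beside -0.05 for all tested models, -0.15 in LO M1, beside -0.05, 0.09 in HI M1, beside 0.11, and 0.08 in LO M2, beside 0.02 (log2 scale). No test was made of these differences between single libraries.

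No member was called by limma in the interaction of sex with reporter level (1 of 49 at an unadjusted p below 0.05, Oasl1), beside 0.0178% of all models called and 3.83% at an unadjusted p below 0.05. Nor did limma call any between male and female label means (1 of 49 at an unadjusted p below 0.05, again Oasl1, with an unadjusted limma p of 0.0140), beside 0.0178% called and 3.35% at an unadjusted p below 0.05. On simulated data these 2 comparisons recovered 0% of genes changed by 1 and 27% and 46% of those changed by 3 on the log2 scale. With 2 libraries of each sex in each group, most sex differences, even of 3, would thus be missed. The absence of calls therefore says little about sex.

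Around these genes stand the receptors, signal carriers and other targets of the pathway. Of 141 other interferon pathway genes listed, 129 matched and 108 passed the filter; 7 were called higher and 6 lower in LO (12.0%, beside 8.29% of all models), with a median difference of 0.11. In 29 of them the groups did not overlap (26.9%, beside 15.1% of all). The share called was below that of all models when HI F2, HI M1, HI M2, LO F2, LO M1 or LO M2 was left out. It was lowest without LO F2, at 2.78% beside 5.70%, so the main share is no result about this list.

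The chains of the type II receptor moved in opposite directions. Ifngr1, the ligand-binding chain, was at 224, 193, 176 and 244 FPKM in HI and 426, 341, 324 and 399 FPKM in LO, every LO library above every HI library. It rose from 209 ± 30.8 to 373 ± 47.9 FPKM (log2 difference 0.83, SE 0.15, adjusted p = 0.0087, and 0.0079 to 0.0455 in the alternatives). Ifngr2, the signalling chain, was at 57.2, 99.7, 43.1 and 72.1 FPKM in HI and 38.7, 23.1, 25.0 and 30.1 FPKM in LO, again without overlap. It fell by 1.15 on the log2 scale (SE 0.28, adjusted p = 0.0302), a call that was lost in 9 of 16 alternatives, with adjusted p up to 0.0872. Of the type I receptor chains, Ifnar2 had all LO values above all HI values (129 ± 21.9 and 184 ± 20.7 FPKM, difference 0.52, adjusted p = 0.0873) and Ifnar1 did not (0.14, adjusted p = 0.687).

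Stat2, a transcription factor of the type I pathway, had a difference of -0.05 (adjusted p = 0.934). Socs1, a feedback inhibitor like Usp18, was at 56.2, 60.7, 110.4 and 40.1 FPKM in HI and 35.8, 34.3, 30.4 and 24.2 FPKM in LO. Its LO values were all lower, but the difference of -0.99 (SE 0.29) did not pass (adjusted p = 0.0715). Ptpn6, the phosphatase SHP-1, fell by 0.58 (adjusted p = 0.0452).

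Of the 11 interferon genes matched, 10 were listed at 0 in all 8 libraries, and so was the receptor gene Ifnlr1. Ifng was the exception, at 9.49, 0.932, 3.73 and 0 FPKM in HI and 40.6, 0, 8.30 and 5.40 FPKM in LO. LO F1 was far above the rest, and neither group was uniformly high (adjusted p = 0.602).

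Among other interferon targets, 6 were called higher. Ube2l6, the conjugating enzyme for Isg15, was at 69.7, 37.5, 24.5 and 35.2 FPKM in HI and 112.6, 80.4, 114.5 and 80.0 FPKM in LO, and rose by 1.28 (adjusted p = 0.0267). Cxcl10, a chemokine that attracts T cells, was at 9.35, 26.1, 10.5 and 4.90 FPKM in HI and 74.3, 31.0, 26.7 and 49.9 FPKM in LO, and rose by 1.87 (adjusted p = 0.0385). Groups did not overlap in either gene, although Cxcl10 in HI F2 came close to LO M1. Trafd1 (0.90, adjusted p = 0.0333), Phf11b (0.61, adjusted p = 0.0245), Epsti1 (0.58, adjusted p = 0.0232) and the deaminase Apobec3 (0.54, adjusted p = 0.0318) also rose.

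Lower in LO were 4 more genes, the membrane proteins Ms4a4c, Ms4a4b and Ms4a6b and the RNA sensor Tlr7. Ms4a4c was at 167, 144, 276 and 211 FPKM in HI and 21.5, 27.0, 4.90 and 19.5 FPKM in LO, far apart. Its difference was -3.55 (SE 0.45, adjusted p = 0.0013), the largest of the pathway genes, and it stayed called in all 16 alternatives. Tlr7, which B cells, plasmacytoid dendritic cells and myeloid cells express, was at 8.82, 10.7, 57.4 and 27.5 FPKM in HI and 3.67, 2.04, 1.33 and 4.09 FPKM in LO, and fell by 2.54 (adjusted p = 0.0212). The summed plasmacytoid dendritic cell markers were lower in LO, those of myeloid cells were lower with overlap, and those of B cells were lower without Ighm but 954 to 1131 FPKM in HI and 1121 to 2048 FPKM in LO with it. Each of these sums rests mostly on a few abundant genes. The part of these cells in the Tlr7 difference was not tested. Ms4a4b fell by 0.58 (adjusted p = 0.0347), but its difference was -0.07 with quantile normalization, and Ms4a6b fell by 0.57 (adjusted p = 0.0433). Of the 13 called genes outside the 52, Ifngr1 and Ms4a4c kept the call whichever library was left out, while the other 11 lost it without 3 to 7 of the 8 libraries, with adjusted p up to 0.115.

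**Figure D4:**
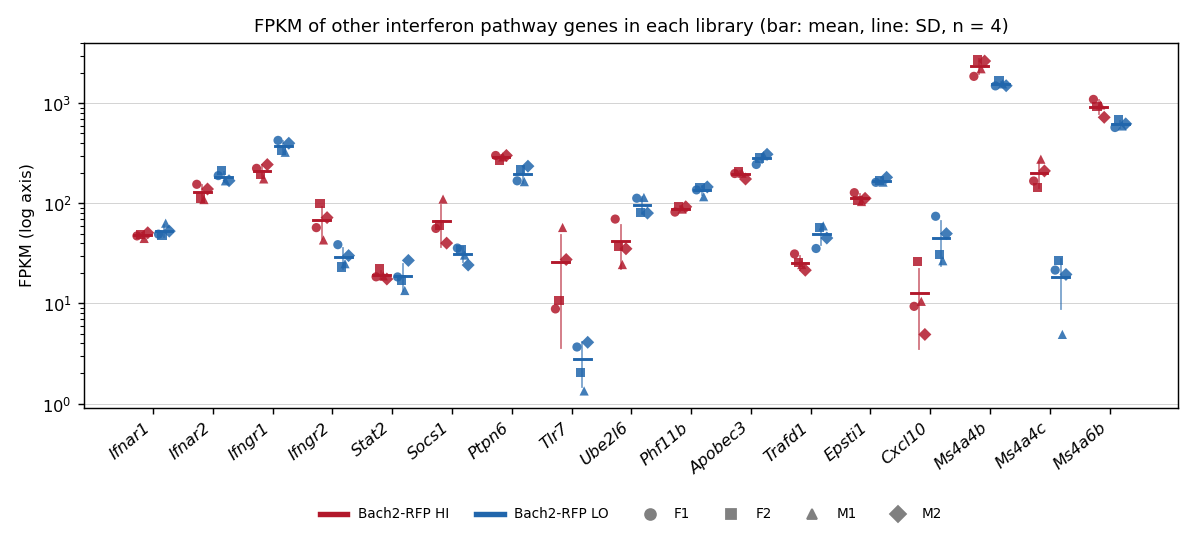
FPKM (log axis) of receptor, signalling and target genes of the interferon pathway outside the 52, in each of the 8 libraries, HI and LO side by side, with points for libraries and the mean with its SD. Ifngr1 is higher and Ifngr2, Tlr7 and Ms4a4c lower in every LO library than in every HI library, while Stat2 and Ifnar1 overlap.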

How the data were processed

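FPKM values of 8 libraries of sorted splenic Treg cells were analysed, 4 Bach2-RFP HI and 4 Bach2-RFP LO, grouped by title. Per the labels' protocols, libraries were made with SmartSeq2. The FPKM values are those the authors deposited, from Cuffnorm per the table's name; the submitters' processing notes list HISAT2, cutadapt and FastQC with no version, and mm9 and NCBIM37 as builds. Annotation, scaling between libraries and use of strand: not given in the sources used here. Hence overlapping and antisense genes cannot be told apart. Read totals are not known; relative depth was read from the steps between low FPKM values. The series design text describes another experiment and was not used.

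Genes were matched by Ensembl identifier. Values were tested as log2(FPKM + 1), for models with 1 FPKM or more in 4 or more libraries, by limma 3.58.1 in R 4.3.3 (eBayes with a variance trend) over all 11260 models, with Benjamini-Hochberg adjustment at 0.05. The LO against HI fit and the interaction with sex used all 8 libraries, and the sexes were compared on label means. The added 1 shrinks log2 differences of low genes; folds are ratios of mean FPKM. The members and lists were chosen with earlier results of these data known. Values were given in full for members that were called or whose groups did not overlap and for the most abundant member of each role; among other pathway genes, those called, the receptor chains, Stat2 and Socs1 were named, some by their difference alone; 1 gene that this rule took is not reported here. Other genes named with values, such as Isg15, Rsad2, Ifit1, Samhd1, Oas3, Oasl2 and Gbp7, were chosen after their values were seen. Promoters are from RefSeq, and windows of 50 bases shared between genes were counted in GENCODE transcripts of another build, from which no coordinate is given.

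The 16 alternatives were scaling by quantile normalization or the upper quartile, a pseudocount of 0.1, a minimum of 5 FPKM or none, sex as a covariate, the label as a block, the shallowest and deepest library left out, and each library left out in turn. On simulated data with the spreads of the 11260 models, the LO against HI fit recovered 19% of genes changed by 1 and 80% of those changed by 3 on the log2 scale, with 7 unchanged genes called. In the simulation 100 genes were changed by each size, while 934 models were called in the data. The adjustment depends on the share of changed genes, so recovery in the data can differ.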

Additional observations from a re-analysis of the deposited data

Results flagged for a closer look

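Within the groups of 4 libraries, 1 library stood far from the other 3 in 5 of the 102 sets of values of the matched members. The rule used marks about 1 in 20 sets of independent, normally distributed values. These sets share libraries and some hold values of 0, and the rate for them was not tested. Oasl2 was at 1.97 FPKM in LO M1, with the other LO libraries at 9.27 to 9.81. In LO M2, the deepest library, Ifi27, a small protein related to Ifi27l2a, was at 648 FPKM, with the others at 493 to 506. Irf7 was at 43.4 FPKM in HI M2, with the others at 78.8 to 84.2. For Ifitm1, HI M1, the shallowest library, was at 20.9 FPKM with the other HI libraries at 2.61 to 4.06, and LO F1 at 4.06 FPKM with the other LO libraries at 0 to 0.631. Oasl2, Ifi27, Irf7 and Ifitm1 were not called between LO and HI with all libraries.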

How the results depend on the processing

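Oas1a stayed called higher and Usp18 lower in LO in all 16 alternatives. The number of members called higher was 2 in place of 1 with quantile normalization, with the replicate block, and with the shallowest and deepest library left out, each time through Ifi27l2a (adjusted p = 0.0185 with the block). Leaving out single libraries gave 1 to 2 members higher, the second being Rsad2 without LO F2 and Ifi27l2a without LO M2, and 1 to 2 lower, the second being Oasl1 without LO F1. Of the other pathway genes, 7 higher became 2 with the replicate block, 1 with the shallowest and deepest library left out and 1 to 4 without single libraries; 6 lower became 2 with no filter, 3 with sex as a covariate, 2 with the shallowest and deepest library left out and 1 to 5 without single libraries. Over all tested models, 524 calls higher became 338 without LO F2. Differences changed sign in 6 of 607 tests over 38 named genes, none of them called: Psmb8 with quantile normalization (0.31), Irf1 with the shallowest and deepest library left out (-0.071), Dhx58 without HI F1 (range without single libraries -0.11 to 0.35), Ifit1 without HI M2 (-0.060 to 0.32) and Stat2 without HI F2 or LO M1 (-0.23 to 0.088). Of the rest, 494 kept their direction and side of the threshold, 99 fell short of it and 8 newly passed it. The causes were not tested, and some settings also had fewer libraries or models. HI and LO libraries with the same label deviated together with correlations of 0.0522, 0.0149, 0.0699 and 0.113. Libraries with different labels had correlations from -0.0995 to 0.0583. The same label gave the highest correlation for LO F1, LO M1 and LO M2, and not for LO F2. These small values do not decide whether the labels pair the libraries, and the main fit did not use a pairing. Members near 0 FPKM (Mx1, Mx2, Oas2) are limited by depth.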
